A study of Mus musculus with 6 samples.

Results

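The genes described here are 10 markers of muscle satellite cells and of the reserve cells of myoblast cultures: *Pax7*, *Cd34*, *Sdc3*, *Sdc4*, *Fgfr1*, *Fgfr4*, *Met*, *Spry1*, *Vcam1*, and *Calcr*. They were listed by name, with no threshold on a measured value but with earlier results of these data known, and all 10 were found among the 55421 genes of the count table. RNA-seq was performed on C2C12 cells, a mouse myoblast line, after 4 days of differentiation, with 3 libraries per group. The normal group (CUG5) carried a stably transfected *GFP* plasmid with 5 CTG repeats. The DM1 group (CUG200), a cell model of myotonic dystrophy type 1, carried the same kind of plasmid with 200 CTG repeats. Both groups went through G418 selection and the same differentiation, so the plasmid backbone, *GFP*, and the selection were shared. Each group is 1 stably transfected line of an established cell line as far as the methods say, and they do not say whether the 3 biological replicates came from separate transfections or cultures. The p-values below therefore weigh each difference against the spread between these libraries, which may be partly technical. With 1 line per group, the repeat length cannot be told apart from other differences between the lines. The comparison asks whether RNAs that mark undifferentiated cells differed between the groups at this day.

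Satellite cells are the stem cells of skeletal muscle, which lie quiescent between the muscle fiber and its basal lamina and are defined by the transcription factor Pax7. When cultured myoblasts are moved to low serum, most of them leave the cell cycle and fuse into myotubes, while the remainder stay mononucleated and quiescent and are called reserve cells. The markers fall into roles around this choice: growth factor receptors and the syndecans that present FGF and HGF to them, an inhibitor of that signaling, surface and adhesion proteins used to isolate the cells, and a receptor that keeps satellite cells quiescent.

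The libraries held between 61707889 and 80957325 counts. A count stood for 75 aligned bases, and a fragment mostly gave 4 counts, so the libraries correspond to between 15426972 and 20239331 fragments. Counts were scaled to CPM, the share of a library's counts taken by a gene, after TMM normalization, and levels were compared between genes only in TPM, which is scaled for transcript length. A count of 0 allowed up to 3 fragments, or 12 counts, worth between 0.148 and 0.194 CPM of the library totals before TMM, and such limits cover counting error only. After a filter on low counts 19005 genes were tested, of which 1356 (7.13%) were higher and 1660 (8.73%) lower in CUG200 by edgeR's quasi-likelihood test at a Benjamini-Hochberg adjusted p under 0.05. In 414 genes (2.18%) the absolute log2 fold change was also over 1, and in 7065 genes (37.2%) the CPM values of the groups did not overlap.

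Among the markers, *Cd34* and *Fgfr4* were higher and *Sdc4* and *Met* were lower in CUG200. These 2 higher and 2 lower genes were 4 of the 9 markers that passed the filter, *Calcr* being the one that did not. None of the 9 passed the added cutoff on the log2 fold change (0 genes by edgeR, 0 by DESeq2, and 0 at an unadjusted p under 0.05). *Pax7*, *Sdc3*, *Fgfr1*, *Spry1*, and *Vcam1* (5 genes) did not pass the test, and the 95% interval of the log2 fold change covered 0 in each of these 5. The CPM values of the groups did not overlap in 5 of the 9 tested markers, namely the 4 that passed and *Vcam1*. The median log2 fold change of the 9 was -0.055, beside 0.015 over all tested genes. The markers thus did not move in a single direction, and the TPM summed over the 10 genes was 280.2 to 321 in CUG5 and 283 to 326 in CUG200. In RNA from a mixed culture, fewer cells of a type and less RNA per cell cannot be told apart.

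Only *Cd34* passed the test with every single library left out. The adjusted p of *Sdc4* passed in 3 of these 6 fits, that of *Met* in 1, and that of *Fgfr4* in none (0 of 6), although the sign of each held in all 6.

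**Figure D1:**
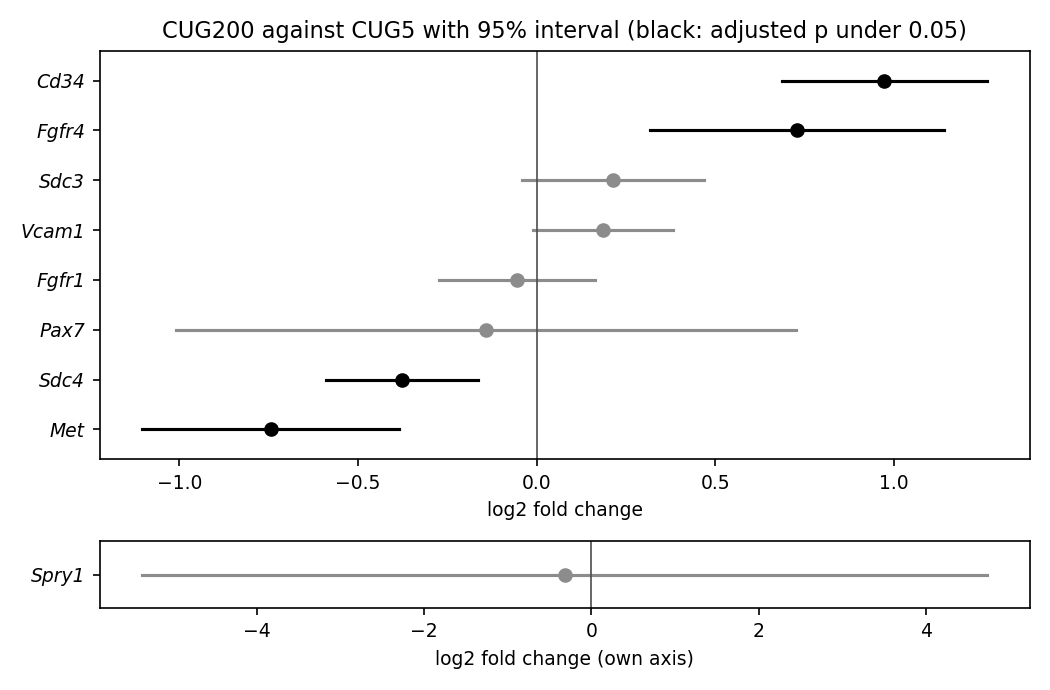
Log2 fold change of the 9 tested markers in CUG200 against CUG5 (horizontal axis), with points for the estimates and lines for 95% intervals from edgeR. Black marks an adjusted p under 0.05, and *Spry1* has an axis of its own because its interval runs from -5.38 to 4.74.

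**Figure D2:**
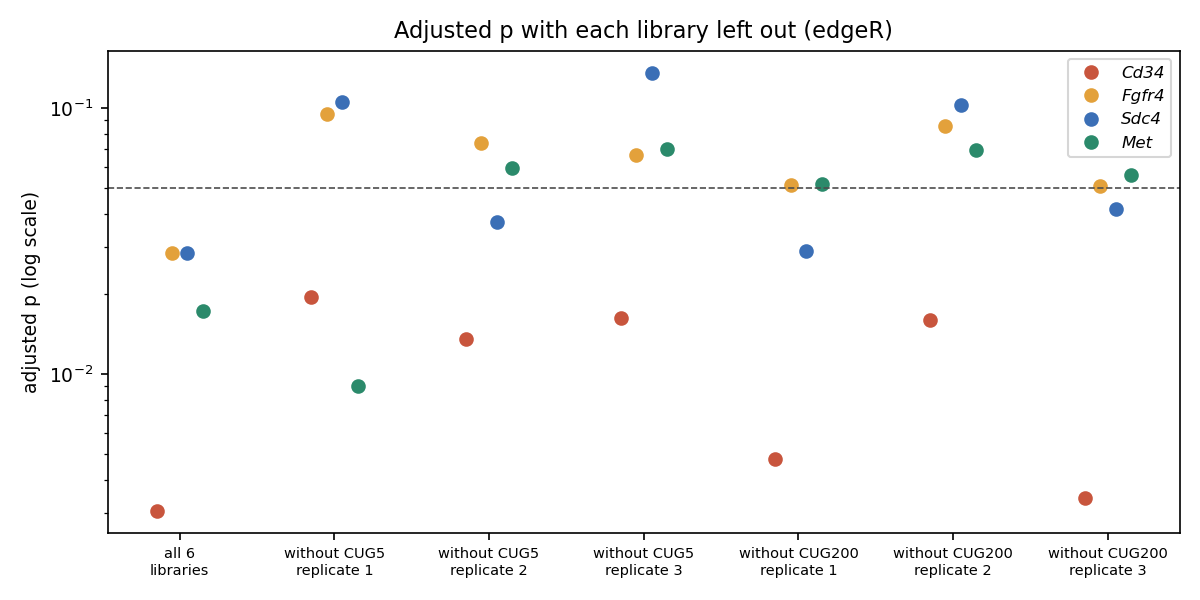
Adjusted p from edgeR (log scale) of the 4 markers that passed the test, with all 6 libraries and with each left out in turn. The dashed line is 0.05, and the points of *Cd34* lie below it in every fit.

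The stretches of DNA upstream of the coding transcripts of these 4 genes are shown because they are the markers whose RNA differed. They are RefSeq promoter sequences on GRCm38.p6, read 5′ to 3′ on the strand of the gene and cut where an annotated coding transcript starts. That of *Sdc4* lies within the span of the gene, because a transcript annotated as non-coding starts farther upstream. Capitals mark the GC box GGGCGG (the letters Sp1 and its relatives bind) and the TATA box TATAA, each searched on both strands, and the marked motifs do not overlap one another. The E-box CANNTG, bound by MyoD and its relatives, was searched in the same way and occurs in none of the stretches printed.
*Cd34*, chr1:194938571-194938818, plus strand: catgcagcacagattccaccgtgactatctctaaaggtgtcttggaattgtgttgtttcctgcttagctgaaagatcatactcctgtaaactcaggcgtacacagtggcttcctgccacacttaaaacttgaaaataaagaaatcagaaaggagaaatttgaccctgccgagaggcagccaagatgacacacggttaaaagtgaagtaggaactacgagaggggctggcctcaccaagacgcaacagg
*Fgfr4*, chr13:55152568-55152639, plus strand: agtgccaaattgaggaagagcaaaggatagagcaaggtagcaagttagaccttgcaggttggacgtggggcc
*Sdc4*, chr2:164443189-164443438, minus strand: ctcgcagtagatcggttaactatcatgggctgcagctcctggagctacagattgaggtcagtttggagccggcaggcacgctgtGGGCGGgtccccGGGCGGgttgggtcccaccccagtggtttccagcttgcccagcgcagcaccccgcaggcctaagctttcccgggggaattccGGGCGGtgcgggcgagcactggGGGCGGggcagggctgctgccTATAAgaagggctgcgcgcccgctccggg
*Met*, chr6:17463707-17463799, plus strand: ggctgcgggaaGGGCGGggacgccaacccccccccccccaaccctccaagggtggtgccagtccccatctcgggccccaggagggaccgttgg

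In the full 250 bases upstream of the RefSeq start, *Cd34* held none of the 3 motifs, 6 CpG dinucleotides, and 46.4% G and C. *Sdc4* held 4 GC boxes and 1 TATA box, with 19 CpG and 68.0% G and C. *Met* held 3 GC boxes and 1 E-box, with 24 CpG and 74.0% G and C, and *Fgfr4* held 2 of each of these motifs, with 15 CpG and 64.0% G and C. Of the 4 genes, *Cd34* was the one without a GC box. Among 32851 RefSeq promoters of the same length, 32.7% held a GC box, 22.8% a TATA box, and 66.2% an E-box, and the median number of CpG was 6. Of the 8 markers with an entry, 7 held a GC box, 4 an E-box, and 1 (*Sdc4*) a TATA box. These matches describe the letters only and name no bound site.

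In CUG5, the order of the markers by TPM was led by *Fgfr1* (80.1 ± 8.22; SD, n = 3), followed by *Vcam1* (59.3 ± 6.97), *Sdc4* (55.3 ± 6.84), *Cd34* (47.5 ± 6.75), *Met* (34.4 ± 1.13), and *Sdc3* (12.4 ± 1.63). *Spry1*, *Fgfr4* (1.33 ± 0.00822), *Pax7* (0.343 ± 0.0191), and *Calcr* closed it. Neighbors overlapped between libraries for *Vcam1* and *Sdc4*, for *Sdc4* and *Cd34*, and for *Spry1* and *Fgfr4*. In CUG200, *Cd34* stood first (87.0 ± 7.24; SD, n = 3), before *Fgfr1* (70.5 ± 14.7), *Vcam1* (61.0 ± 2.30), *Sdc4* (39.0 ± 1.83), *Met* (20.4 ± 3.03), *Sdc3* (13.1 ± 3.02), *Spry1*, *Fgfr4* (2.48 ± 0.430), *Pax7* (0.245 ± 0.139), and *Calcr*. *Cd34* thus moved from the fourth place to the first, with TPM values in CUG200 that overlapped those of *Fgfr1*. *Fgfr1* also overlapped *Vcam1*, and *Spry1* again overlapped *Fgfr4*.

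**Figure D3:**
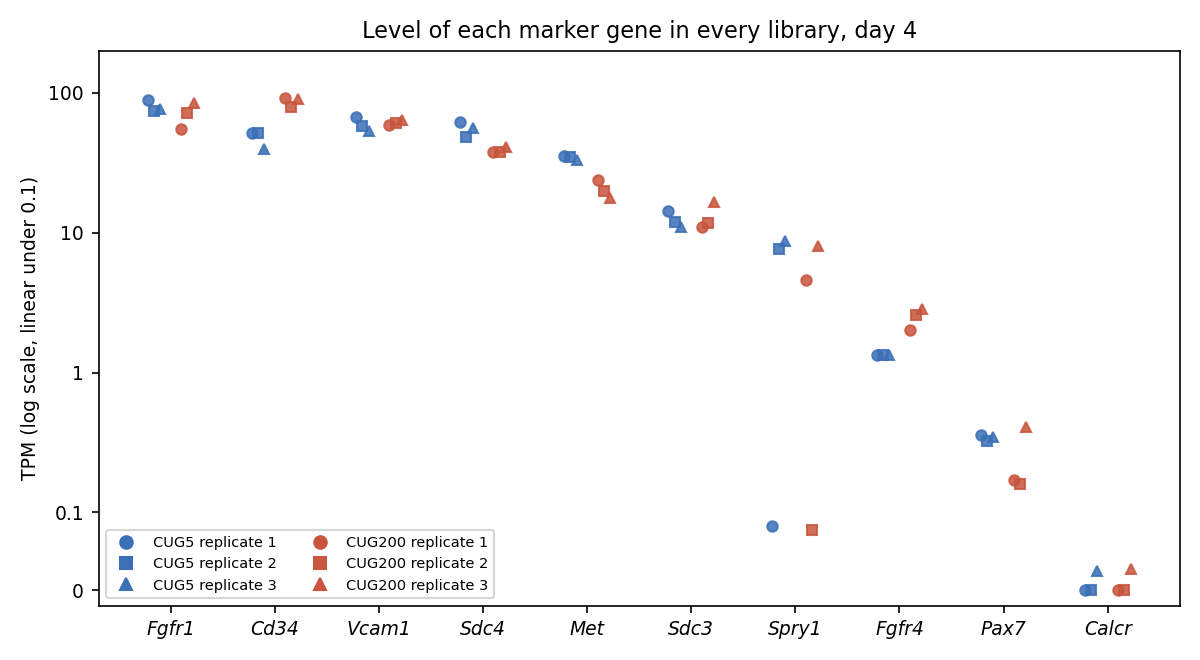
TPM of each marker in every library (log scale, linear under 0.1), blue for CUG5 and red for CUG200, with 1 symbol per replicate number. The CUG200 points of *Cd34* lie above all CUG5 points, *Spry1* has 1 library of each group near 0.08 TPM, and *Pax7* and *Calcr* have the lowest group means.

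*Pax7* (ENSMUSG00000028736, chromosome 4, 139737062 to 139833528, minus strand), the paired-box transcription factor that defines satellite cells, was read at low depth, though above the 12 counts that a count of 0 allows in every library. Its counts were 59, 71, and 82 in CUG5 and 53, 45, and 93 in CUG200. At 4 counts per fragment these are between 11.25 and 23.25 fragments per library. The values of the groups overlapped, with the highest in CUG200 replicate 3 and the lowest in CUG200 replicate 2. The CPM was 1.01 ± 0.268 in CUG5 and 0.914 ± 0.421 in CUG200 (SD, n = 3 each). The log2 fold change was -0.14 (SE 0.382, 95% interval -1.01 to 0.72, edgeR adjusted p = 0.847), and this interval leaves room for a change in either direction. Its sign turned without CUG200 replicate 1 (0.022) or without CUG200 replicate 2 (0.064).

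*Cd34* (ENSMUSG00000016494, chromosome 1, 194938819 to 194961279, plus strand) encodes a surface sialomucin used to isolate quiescent satellite cells. Its CPM was 71.6, 78.0, and 59.1 in CUG5 and 156, 129, and 125 in CUG200. Every CUG200 library was above every CUG5 library, the lowest of the former being well clear of the highest of the latter. The means were 69.6 ± 9.62 and 137 ± 16.6 CPM (SD, n = 3 each), a rise of 1.96-fold. The log2 fold change was 0.97 (SE 0.127, 95% interval 0.68 to 1.26, edgeR adjusted p = 0.00305), just inside the cutoff of 1. With each library left out it lay between 0.88 and 1.06, with adjusted p between 0.00341 and 0.0194. It passed the cutoff of 1 without CUG5 replicate 2, CUG200 replicate 2, or CUG200 replicate 3. Over all 16 alternatives the adjusted p ran from 2.01e-10 with DESeq2 to 0.0194. Some exonic bases of *Cd34* are shared with *Gm16897* on the opposite strand, which was listed with 59, 66, and 24 counts in CUG5 and 104, 122, and 102 in CUG200, against 4130 to 11564 counts of *Cd34*. The strand setting of the counting is not given in the sources used here.

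*Cd34* is also made by endothelial cells and fibro-adipogenic progenitors, whose markers were read in the same libraries. Of the 10 endothelial markers, 3 passed the filter and none (0 by edgeR and 0 by DESeq2) passed the test in either direction, while 2 were higher at an unadjusted p under 0.05. Their summed level was 1.15 to 1.52 TPM in CUG5 and 1.53 to 1.92 TPM in CUG200, higher in every CUG200 library. Each of the 10 was under 1 TPM, and the defining marker *Cdh5* was at 0 in all but 1 library. The most abundant endothelial markers were *Flt1* (0.520 to 0.884 TPM) and *Egfl7* (0.0954 to 0.640 TPM). Of the 10 leukocyte markers, 2 passed the filter and none the test (0 by edgeR, by DESeq2, and at an unadjusted p under 0.05), and their sum was 4.15 to 6.25 TPM in CUG5 and 4.41 to 7.11 TPM in CUG200, most of it *Cd68* (3.95 to 6.74 TPM), followed by *Fcer1g* (0 to 0.388 TPM). *Ptprc*, *Adgre1*, *Cd3e*, and *Tyrobp* were at 0 in every library. Of the 10 markers of fibro-adipogenic progenitors, 4 rose and 1 fell, their median log2 fold change was 0.27, and they summed to 1001 to 1564 TPM in CUG5 and 1399 to 1812 TPM in CUG200. The elastic fiber gene *Mfap5* (log2 fold change 1.49, edgeR adjusted p = 0.000898), *Dpt* (1.08, 0.00304), *Lum* (0.81, 0.01), and *Dcn* (0.45, 0.0281) rose, and *Smoc2* fell (-0.90, 0.0119). With limma on log2(TPM + 1) or log2(TPM + 0.1) the calls of *Dcn* and *Smoc2* were lost. Leaving out any of the CUG5 libraries or CUG200 replicate 2 also ended the call of *Dcn*, and leaving out CUG5 replicate 1 or CUG200 replicate 2 that of *Smoc2*. The most abundant of them were *Dcn* and *Ly6a*, and *Ly6a* did not pass the test (log2 fold change 0.22, edgeR adjusted p = 0.828). The cultures are of a single cell line, and the part of these matrix genes or of other cell types in the difference of *Cd34* was not tested.

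**Figure D4:**
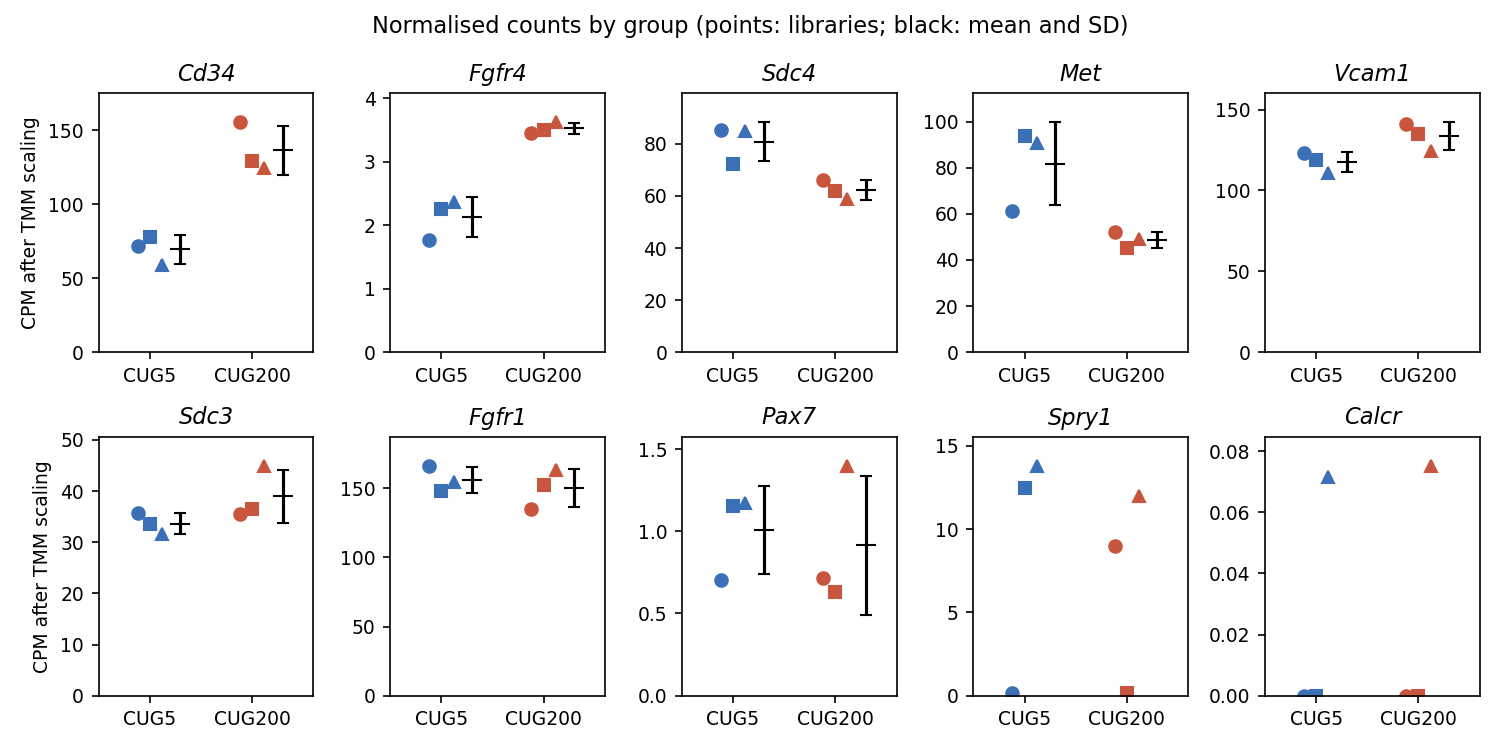
CPM after TMM scaling of each marker by group, with points for libraries (1 symbol per replicate number) and black marks for the mean and SD (n = 3). Every panel starts at 0 with its own scale. *Cd34*, *Fgfr4*, *Sdc4*, *Met*, and *Vcam1* show no overlap between groups, and *Spry1* and *Calcr* carry no mean because their libraries fall far apart or near 0.

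The syndecans are heparan sulfate proteoglycans of the cell surface that present FGF and HGF to their receptors, and syndecan-3 and syndecan-4 mark satellite cells. *Sdc4* (ENSMUSG00000017009, chromosome 2, 164424247 to 164443887, minus strand) fell and *Sdc3* (ENSMUSG00000025743, chromosome 4, 130792537 to 130826319, plus strand) did not pass the test. The CPM of *Sdc4* was 85.3, 72.3, and 85.1 in CUG5 and 66.2, 61.8, and 58.8 in CUG200, and the groups did not overlap. Its mean fell from 80.9 ± 7.44 to 62.3 ± 3.74 CPM (SD, n = 3 each). The log2 fold change of *Sdc4* was -0.38 (SE 0.0934, 95% interval -0.59 to -0.16, edgeR adjusted p = 0.0284). The call was lost without CUG5 replicate 1 (adjusted p = 0.106), CUG5 replicate 3 (0.136), or CUG200 replicate 2 (0.103), with log2 fold changes between -0.45 and -0.33 over the 6 fits. It was also lost with limma on log2(TPM + 1) or log2(TPM + 0.1) (0.0523 and 0.0521), and over all 16 alternatives the adjusted p ran from 0.0112 to 0.136.

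For *Sdc3*, the CPM was 35.7, 33.6, and 31.5 in CUG5 and 35.5, 36.5, and 44.9 in CUG200. The groups overlapped, and CUG200 replicate 3 stood above the other 5 libraries. Its log2 fold change was 0.21 (SE 0.112, 95% interval -0.04 to 0.47, edgeR adjusted p = 0.239). Per length, *Sdc4* was the more abundant of the pair in both groups, at 55.3 against 12.4 TPM in CUG5 and 39.0 against 13.1 TPM in CUG200.

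Among the receptor tyrosine kinases, *Fgfr4* rose, *Met* fell, and *Fgfr1* did not pass the test. *Fgfr1* (ENSMUSG00000031565, chromosome 8, 25513654 to 25575718, plus strand) is the FGF receptor through which FGF2 drives myoblast proliferation, and it had the highest level of the markers in CUG5. Its CPM was 166, 148, and 154 in CUG5 and 135, 152, and 163 in CUG200, so the groups overlapped. The log2 fold change was -0.06 (SE 0.096, 95% interval -0.27 to 0.16, edgeR adjusted p = 0.754), and without CUG200 replicate 1, the lowest library, it was 0.028. The interval leaves room for a change of no more than 0.27 log2 units downwards and 0.16 upwards.

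*Fgfr4* (ENSMUSG00000005320, chromosome 13, 55152640 to 55168759, plus strand), an FGF receptor that in the muscle lineage is found in myoblasts and regenerating fibers, was read at much lower depth, with 149, 139, and 165 counts in CUG5 and 257, 250, and 241 in CUG200. Its CPM was 1.77, 2.26, and 2.36 in CUG5 and 3.46, 3.51, and 3.62 in CUG200. The groups did not overlap, and in CPM the CUG200 libraries lay close together (2.13 ± 0.316 against 3.53 ± 0.0859 CPM; SD, n = 3 each). In TPM the groups did not overlap either, but there the CUG5 libraries were the ones close together (1.33 ± 0.00822 against 2.48 ± 0.430 TPM). The rise was 1.66-fold, with a log2 fold change of 0.73 (SE 0.180, 95% interval 0.32 to 1.14, edgeR adjusted p = 0.0284). With any 1 library left out the log2 fold change stayed between 0.61 and 0.82, but the adjusted p was 0.0947, 0.0742, and 0.0667 without CUG5 replicates 1, 2, and 3 and 0.0515, 0.0857, and 0.0507 without CUG200 replicates 1, 2, and 3. Limma on log2(TPM + 1) and log2(TPM + 0.1) gave 0.0579 and 0.0705, and over all 16 alternatives the adjusted p ran from 0.0164 with DESeq2 to 0.0947.

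*Met* (ENSMUSG00000009376, chromosome 6, 17463800 to 17573980, plus strand) encodes the receptor of HGF, the factor that brings quiescent satellite cells into the cell cycle. Its CPM was 61.1, 93.6, and 90.6 in CUG5 and 52.2, 45.1, and 48.9 in CUG200. The groups did not overlap, and CUG5 replicate 1 lay nearer to the CUG200 libraries than to the other 2 of its own group. In TPM, the same CUG5 libraries were at 35.3, 34.7, and 33.1 and the CUG200 libraries at 23.7, 19.8, and 17.7, and CUG5 replicate 1 did not stand apart. The cause of this gap between CPM and TPM was not tested. The mean fell from 81.7 ± 18.0 to 48.8 ± 3.55 CPM (SD, n = 3 each), and CUG200 was 1.68-fold lower. The log2 fold change was -0.75 (SE 0.157, 95% interval -1.11 to -0.39, edgeR adjusted p = 0.0172).

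The call of *Met* strengthened without CUG5 replicate 1 (log2 fold change -0.92, edgeR adjusted p = 0.00898). It was lost without CUG5 replicate 2 (0.0593), CUG5 replicate 3 (0.0702), CUG200 replicate 1 (0.0519), CUG200 replicate 2 (0.0695), or CUG200 replicate 3 (0.0559), with log2 fold changes from -0.78 to -0.64. Over all 16 alternatives the adjusted p ran from 7.31e-05 with DESeq2 to 0.0702, and with the replicate number as a block it was 0.0516.

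*Spry1* (ENSMUSG00000037211, chromosome 3, 37639947 to 37644598, plus strand) encodes an inhibitor of receptor tyrosine kinase signaling that satellite cells need to return to quiescence. Its counts were 11, 766, and 964 in CUG5 and 668, 11, and 796 in CUG200. CUG5 replicate 1 and CUG200 replicate 2 were thus below the 12 counts that a count of 0 allows, while the other 4 libraries held 668 or more. The spread within each group was wider than any difference between them: the log2 fold change was -0.32 with an SE of 1.87 (95% interval -5.38 to 4.74, edgeR adjusted p = 0.936). Its sign turned without CUG5 replicate 2 (0.017), CUG5 replicate 3 (0.18), or CUG200 replicate 2 (0.26). Without both low libraries, a choice made after seeing the data, it was -0.33 with an adjusted p of 0.411. Among 10507 genes with at least 500 counts in a library of each group, 8 differed by 20-fold or more between libraries of the same group in both groups, and *Spry1* was the only one (1 gene) low in exactly these libraries. *Gm42922*, which shares exonic bases with *Spry1* on the opposite strand, held between 11 and 28 counts and did not follow this split. The cause of the split was not tested.

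*Vcam1* (ENSMUSG00000027962, chromosome 3, 116109949 to 116129688, minus strand) encodes an adhesion molecule of the immunoglobulin family that serves to sort satellite cells and takes part in myoblast contact. Its CPM was 123, 119, and 111 in CUG5 and 141, 135, and 125 in CUG200. The groups did not overlap in CPM, though by a small gap, and they did overlap in TPM, where the values were 66.8, 58.3, and 53.0 against 59.0, 60.4, and 63.5. The log2 fold change was 0.19 (SE 0.0858, 95% interval -0.01 to 0.38), which did not pass edgeR's test (adjusted p = 0.184).

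*Calcr* (ENSMUSG00000023964, chromosome 6, 3685680 to 3764714, minus strand), the calcitonin receptor that holds satellite cells in quiescence, was not detected beyond the limit of the depth. It had 5 counts in replicate 3 of each group and 0 in the other 4 libraries, all under the 12 counts that a count of 0 allows. It failed the filter, and no fold change was taken from it.

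The ligands of the receptors and the genes around them were counted on the same fit. Of 16 FGF and HGF genes listed as ligands, 10 were tested, 4 rose and 1 fell, and the median log2 fold change was 0.27. The list includes the intracellular *Fgf11*, *Fgf12*, *Fgf13*, and *Fgf14*, which are not ligands of these receptors. The counts and the median are therefore not those of ligands alone. *Hgf*, the ligand of Met, rose from 28.7 ± 0.741 to 43.3 ± 5.08 CPM (log2 fold change 0.59, edgeR adjusted p = 0.00814), so that the ligand was higher and its receptor lower in CUG200. *Fgf10* (0.74, 0.0103), *Fgf7* (0.63, 0.0313), and the intracellular *Fgf14* (1.12, 0.0405) also rose, and *Fgf5* fell (-0.72, 0.0477). With limma on log2(TPM + 1) or log2(TPM + 0.1), none (0) of the listed genes was called higher. The higher genes of this list were 2, *Hgf* and *Fgf10*, without any of the CUG5 libraries or without CUG200 replicate 1 or 2, and the call of *Fgf5* was lost in the same fits. Over 16 alternatives *Fgf5* passed in 5, with an adjusted p of up to 0.156.

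Of 24 co-receptors, heparan sulfate enzymes, and activators of HGF, 19 were tested, 1 rose and 5 fell (median -0.12). The genes that fell were the heparan sulfate sulfotransferase *Hs2st1* (log2 fold change -0.44, edgeR adjusted p = 0.0109), the sulfatases *Sulf1* (-0.38, 0.0131) and *Sulf2* (-0.52, 0.0166), the glypican *Gpc1* (-0.40, 0.0158), and the receptor *Fgfr3* (-1.07, 0.0197). The other tested heparan sulfate genes of the list did not pass the test, namely the syndecans *Sdc1* (-0.06, 0.68) and *Sdc2* (0.18, 0.291), the core protein genes *Gpc6* (-0.07, 0.763) and *Hspg2* (0.24, 0.152), and the enzyme genes *Hs6st1* (-0.10, 0.61), *Hs6st2* (-2.08, 0.15), and *Ndst1* (-0.13, 0.512). *Hgfac*, which encodes an activator of HGF, rose (1.10, 0.0429). With each library left out its log2 fold change lay between 0.97 and 1.29, but the adjusted p, between 0.0514 and 0.126, missed the threshold in all 6 fits. The number of lower genes was 0 without CUG5 replicate 3 or CUG200 replicate 2, 2 without CUG5 replicate 1, and 3 without CUG5 replicate 2.

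All 26 feedback regulators and targets of FGF and MET signaling were tested, and 7 fell and 2 rose (median -0.23). The other Sprouty genes split: *Spry2* (log2 fold change -0.75, edgeR adjusted p = 0.00294) and *Spry4* (-1.15, 0.00369) fell, and *Spry3* rose (1.74, 0.0344), from 0.385 ± 0.221 to 1.31 ± 0.0755 CPM. The transcription factor *Etv5* (-0.80, 0.00447) and the ERK phosphatase *Dusp6* (-0.65, 0.00702) fell as well, and the inhibitor *Spred3* rose (0.95, 0.00244). The related genes *Etv1* (-0.44, 0.148), *Etv4* (-0.12, 0.562), *Dusp4* (-0.19, 0.173), and *Dusp5* (-0.35, 0.13) did not pass the test. The number of lower genes was 4 without CUG5 replicate 3 or CUG200 replicate 2, and among the 6 fits with 1 library left out *Spry3* kept its call only without CUG5 replicate 2.

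Of 15 partners of CALCR and VCAM1, 13 were tested, 3 rose and 1 fell (median -0.04). Of the 3 chain genes of collagen V, a ligand of CALCR on satellite cells, *Col5a1* (log2 fold change 0.90, edgeR adjusted p = 0.00319) and *Col5a3* (0.38, 0.0399) rose, while *Col5a2* did not pass the test (0.28, 0.0805). With limma on log2(TPM + 1) or log2(TPM + 0.1), *Col5a1* did not pass either (adjusted p up to 0.0726). *Calcb*, a peptide hormone of the calcitonin family, rose (1.98, 0.00633), and the related receptor gene *Calcrl* fell (-0.74, 0.0332), a call that, among the 6 fits with 1 library left out, held only without CUG200 replicate 1. The *Col5a3* call was lost without any of the CUG5 libraries or without CUG200 replicate 2. Over 16 alternatives it passed in 8, with an adjusted p of up to 0.398.

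The markers were set beside 36 other satellite cell genes, of which 33 were tested, 2 rose and 12 fell, and whose median log2 fold change was -0.32 against -0.055 for the markers. The falls with the smallest p-values were in the muscle cadherin *Cdh15* (-0.95, edgeR adjusted p = 0.00104) and the Notch targets *Heyl* (-1.61, 0.00109) and *Hey1* (-2.33, 0.00198). The muscle determination factor *Myod1* fell too (-0.52, 0.0129), and *Gpx3* (0.77, 0.00485) and *Id2* (0.41, 0.0304) rose, and among the 6 fits with 1 library left out the call of *Id2* held only without CUG200 replicate 3. Over 16 alternatives *Gpx3* passed in 14, with an adjusted p of up to 0.0546, and the higher genes of this list numbered 0 to 3. Of the 32 myotube genes, 23 fell and none rose (0 by edgeR and by DESeq2, 1 at an unadjusted p under 0.05), with a median of -0.66, with the smallest p-values for the myosins *Myh8* (-2.90, 7.65e-05) and *Myh7* (-2.13, 0.000997) and for the creatine kinase *Ckm* (-0.84, 0.00159). Of the 24 proliferation genes, 1 rose (*Pcna*, 0.43, 0.0373) and 4 fell, namely *Mcm2*, *Mcm3*, *Mcm4*, and *Mcm5*, with a median of 0.09. With single libraries left out, the lower calls were 8 to 16 among the satellite cell genes, 17 to 22 among the myotube genes (where 1 gene was called higher without CUG200 replicate 3), and 0 to 6 among the proliferation genes. The lower proliferation calls were 0 without CUG5 replicate 1, CUG5 replicate 3, or CUG200 replicate 2, and the higher ones were 5 without CUG200 replicate 3 and 0 in the other fits. The myotube genes summed to 23120.3 to 26922 TPM in CUG5 and 16035 to 18544 TPM in CUG200, so both groups held differentiated cells. The part of this difference in the values of the markers was not tested.

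**Figure D5:**
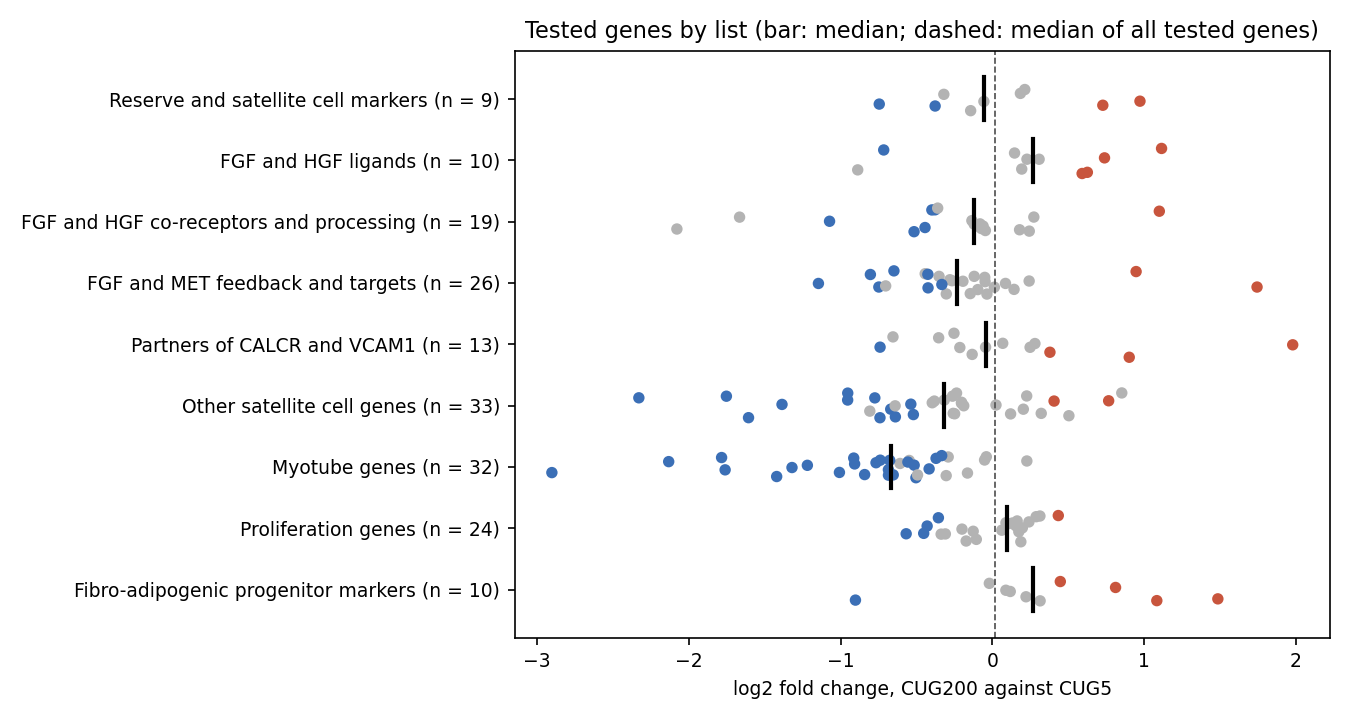
Log2 fold change of CUG200 against CUG5 for the tested genes of each list, with red for higher and blue for lower genes at an adjusted p under 0.05 (edgeR) and gray for the others. Black bars are medians and the dashed line is the median of all tested genes (0.015); the markers spread to both sides while the myotube genes lie mostly below 0.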

How the data were processed

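Total RNA of 3 CUG5 and 3 CUG200 libraries was sequenced. The authors trimmed the reads with Trim Galore, aligned them to GRCm38 with HISAT2, and ran StringTie to quantify them. Deposited were a table of counts per gene, without normalization, and for each library a table of coverage (signal), FPKM, and TPM per gene, of which the deposited FPKM values were not used. The paper used DESeq2. A count was taken as 75 aligned bases, because the deposited coverage times transcript length, over 75, fell within 1 of the count in all libraries for 99.2% of 14004 single-transcript genes. Gene spans were checked against GENCODE M21, and 10 of 10 markers had the same span.

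The members and lists were chosen with earlier results of these data known. Genes were filtered with filterByExpr (minimum count of 10) and scaled by TMM (factors 0.940 to 1.05), and the groups were compared by the quasi-likelihood test of edgeR with robust estimation and no covariate, with p-values adjusted by Benjamini-Hochberg over all 19005 genes and cutoffs of 0.05 and an absolute log2 fold change of 1. The biological coefficient of variation was 0.221. SE was the absolute log2 fold change divided by the square root of F, with 95% intervals. The deposited TPM values were used for levels and for limma as an alternative. All 10 markers were named, and from each other list at most 3 genes per direction, those past the test with the lowest p-values, plus the 2 most abundant markers of each other cell type (*Dcn*, *Ly6a*, *Flt1*, *Egfl7*, *Cd68*, *Fcer1g*). *Sulf2*, *Fgfr3*, *Fgf14*, *Dusp6*, *Etv1*, *Etv4*, *Dusp4*, *Dusp5*, *Myod1*, *Mcm3*, *Col5a2*, the heparan sulfate genes that did not pass, *Cdh5*, *Ptprc*, *Adgre1*, *Cd3e*, *Tyrobp*, and the genes overlapping markers on the opposite strand were added after their values were seen.

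On simulated counts in which 200 genes were shifted by 2 on the log2 scale, edgeR recovered 150 with 11 false calls among 18435 tested genes. DESeq2 recovered 164 with 32 false calls, and the fit with the replicate number as a block recovered 153. A simulated gene was called at an adjusted p under 0.05 with an absolute log2 fold change over 1. This shift was larger than the change of any tested marker, so these rates do not carry over to the marker calls. Alternatives were DESeq2, its size factors in edgeR, at least 10 counts in every library or only 1 in all as the filter, edgeR without TMM or without robust estimation, counts divided by 4 and rounded up, limma on log2(TPM + 1) and log2(TPM + 0.1), the replicate block, and each library left out. The scripts ran in Python 3.11.15 (matplotlib 3.10.9, pandas 2.3.3) and R 4.3.3 (limma 3.58.1, DESeq2 1.42.0, edgeR 4.0.16). Protein sequences were not used here.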

Additional observations from a re-analysis of the deposited data

How the results depend on the processing

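Over 16 alternatives, *Cd34* passed in all 16, *Sdc4* in 11, *Met* in 10, and *Fgfr4* in 8, and none of the 4 changed sign. With limma on log2(TPM + 1) or log2(TPM + 0.1), 1 marker was higher (*Cd34*) and 1 lower (*Met*), and 352 or 354 of all genes were higher and 673 or 696 lower, with 137 past both cutoffs on log2(TPM + 1). The deviations of libraries with the same replicate number correlated at 0.0675, 0.0222, and 0.0263, beside -0.0722 to 0.0451 for libraries with different numbers. These weak correlations show no clear pairing by number, but they cannot settle whether libraries were handled together. With the number as a replicate block, 1 marker was lower, and *Met* had a log2 fold change of -0.72 and an edgeR adjusted p of 0.0516. With each library left out, 1 to 1 marker was higher, 0 to 1 lower (0 without CUG5 replicate 3 or CUG200 replicate 2), and 0 to 1 past both cutoffs, while all genes gave 543 to 1678 higher, 485 to 2111 lower, and 273 to 438 past both cutoffs. In the same fits the log2 fold change ran from -0.58 to 0.064 for *Pax7* (positive without CUG200 replicate 1 or 2), from -0.12 to 0.028 for *Fgfr1* (positive without CUG200 replicate 1), and from -0.94 to 0.26 for *Spry1* (positive without CUG5 replicate 2, CUG5 replicate 3, or CUG200 replicate 2). The cause of these shifts was not tested. The median log2 fold change of all genes, 0.015, was -0.062 with limma on log2(TPM + 1) and -0.094 on log2(TPM + 0.1). *Pax7* and *Calcr* were read at low depth, with counts that stayed under 100.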
